A study of Homo sapiens with 12 samples.

Results

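HEK293 is an established line of human embryonic kidney origin. In HEK293 cells from which both catalytic subunits of AMPK had been knocked out (AMPK KO), the libraries of cells given cordycepin and then EGF were compared with those of unstimulated cells given the solvent DMSO. These are 4 of the 12 libraries in the series, 2 a side, numbered replicates 2 and 3, and they were chosen by their labelled genotype and treatment. The comparison asks which part of the transcriptional response to EGF is still seen when cordycepin is present in cells without AMPK. No sample received cordycepin without EGF, so in any rise or fall against DMSO the effects of EGF and of cordycepin cannot be told apart. Total RNA was depleted of ribosomal RNA and sequenced with strand kept, and values are RPKM, reads scaled to the length of the gene and to the size of the library.

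All 4 samples carried the CRISPR knockout of PRKAA1 and PRKAA2, and all had been serum starved for 24 h. The AMPK KO cordycepin+EGF samples received 25 µM cordycepin for 50 min in total, with EGF during the last 30 min. The AMPK KO DMSO samples received solvent only, for 50 min in one label and for 20 min in another, so a difference in incubation time between the groups cannot be told apart from the treatment. The amount of EGF is 15 nM in one source and 15 µM in another. AMPK KO cells given DMSO and then EGF (2 libraries) and wild-type (WT) cells under the same treatments (4 libraries) are used below only for comparison. The study calls the replicates biological, but no label says that they came from separate cultures, so p-values measure only the spread between these samples, which may be technical. Whether the knockout line is a single clone is not given in the sources used here.

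EGF binds its receptor at the cell surface and activates the RAS, RAF, MEK and ERK kinase cascade, which phosphorylates ternary complex factors that sit with serum response factor on CArG boxes in promoters. Immediate early genes such as EGR1 and FOS are transcribed within minutes of this signal and need no protein synthesis, and they are followed by feedback inhibitors such as the dual specificity phosphatases and the Sprouty proteins. Cordycepin, or 3′-deoxyadenosine, resembles adenosine. Once phosphorylated it is known to end the chain during polyadenylation. The paper states that in intact cells it does not end the chains of pre-mRNA in general. AMPK is a kinase that senses low energy and has been considered a target of it.

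EGR1, FOS, EGR3, EGR2 and FOSB, all genes of immediate early transcription factors, were higher with cordycepin and EGF than in unstimulated AMPK KO cells, by 4.01-fold (FOSB) to 25.1-fold (EGR1) in mean RPKM (n = 2 and 2). In the limma fit of all libraries they were the 5 of 25 tested immediate early transcription factor genes that passed an adjusted p of 0.05, and 0 of 21 feedback inhibitors and 0 of 25 other growth factor inducible genes did so. Voom on recovered reads called more genes in each of these lists, with its counts given beside each list. JUN, JUNB, DUSP1, TRIB1, SPRY2 and KLF6 had a higher mean with EGF alone than in DMSO, but with cordycepin their means were within 1 RPKM of the DMSO mean or below it. None of them passed with EGF alone, where only EGR1, FOS and EGR3 did. Other members went the other way. At an unadjusted p under 0.05, 9 of 25 early transcription factor genes were higher and 1 lower with cordycepin and EGF. Of 21 feedback inhibitors 5 were higher and 0 lower, beside 12.2% and 10.0% of all tested genes.

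The promoters of EGR1, FOS and FOSB are shown beside that of JUNB, to compare genes that stayed above DMSO with 1 that did not pass. Each sequence is the 250 bases before the start site annotated by RefSeq (GRCh38.p14), 5′ to 3′ on the strand of the gene, and capitals mark CArG boxes, the TATA box letters TATAAA and, as the core of the cAMP response element, TGACG, each searched on both strands. The EGR1 window is chr5:138465229-138465478, plus strand. The FOS window is chr14:75278578-75278827, plus strand. The FOSB window is chr19:45467746-45467995, plus strand. The JUNB window is chr19:12791236-12791485, plus strand.
EGR1: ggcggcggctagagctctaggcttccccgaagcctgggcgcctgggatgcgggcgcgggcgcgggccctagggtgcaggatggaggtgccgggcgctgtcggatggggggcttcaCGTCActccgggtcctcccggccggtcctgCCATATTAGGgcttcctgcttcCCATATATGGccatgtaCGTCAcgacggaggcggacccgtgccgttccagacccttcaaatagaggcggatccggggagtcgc
FOS: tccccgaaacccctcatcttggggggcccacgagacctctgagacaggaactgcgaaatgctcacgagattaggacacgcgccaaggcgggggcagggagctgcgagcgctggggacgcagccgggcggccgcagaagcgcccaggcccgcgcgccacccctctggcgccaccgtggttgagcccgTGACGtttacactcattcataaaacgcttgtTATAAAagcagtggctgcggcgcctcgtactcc
FOSB: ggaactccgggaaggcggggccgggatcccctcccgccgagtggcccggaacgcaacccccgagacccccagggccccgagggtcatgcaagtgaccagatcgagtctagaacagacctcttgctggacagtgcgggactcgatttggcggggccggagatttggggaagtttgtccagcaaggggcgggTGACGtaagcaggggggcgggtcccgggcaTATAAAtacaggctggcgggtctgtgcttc
JUNB: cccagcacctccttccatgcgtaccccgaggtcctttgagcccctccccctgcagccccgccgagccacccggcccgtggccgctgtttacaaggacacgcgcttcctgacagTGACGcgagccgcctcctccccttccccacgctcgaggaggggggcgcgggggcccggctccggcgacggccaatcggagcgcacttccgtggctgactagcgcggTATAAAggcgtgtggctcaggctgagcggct
The EGR1 window held 2 CArG boxes, which began 105 and 83 bases before the start site, and 2 copies of TGACG. FOS and FOSB each held 1 TGACG and 1 TATAAA within 64 bases of the start, and JUNB held 1 of each as well, with its TGACG beginning 137 bases before the start. No marked match overlapped another motif. Of 34943 windows of this length, 1.16% held a CArG box, 10.8% TATAAA and 21.2% TGACG. Of the 27 listed immediate early transcription factor genes, 20 had an entry, and 3 of these held a CArG box, 4 TATAAA and 15 TGACG. EGR3 had no entry. The search covered 250 bases only, so CArG boxes further upstream were not counted. A window without a CArG box, such as that of FOS, does not mean that the gene lacks one.

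EGR1, a zinc finger transcription factor (ENSG00000120738, GRCh38 chromosome 5, 138465479 to 138469303, plus strand), had 2.38 and 2.17 RPKM in the AMPK KO DMSO replicates 2 and 3 and 44.01 and 69.96 RPKM with cordycepin and EGF (means 2.27 ± 0.153 and 57.0 ± 18.4, SD, n = 2). Both treated samples lay far above both DMSO samples. The fitted log2 fold change was 4.39 (SE 0.186, 95% interval 3.97 to 4.81, adjusted p = 4.978e-05). With EGF alone EGR1 reached 106.5 and 106.9 RPKM, so the mean with cordycepin was 53.4% of the mean with EGF alone. The difference between cordycepin+EGF and EGF alone was -0.89 on the log2 scale (adjusted p = 0.0644), which did not pass. The 2 cordycepin+EGF replicates of EGR1 differed from each other more than the 2 EGF replicates did.

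FOS, a component of the AP-1 factor (ENSG00000170345, chromosome 14, 75278826 to 75282230, plus strand), had 0.755 and 0.552 RPKM in DMSO and 6.54 and 10.0 RPKM with cordycepin and EGF. FOS thus rose by a log2 fold change of 2.95 (SE 0.209, 95% interval 2.48 to 3.42, adjusted p = 0.00151). With EGF alone FOS had 6.22 and 5.75 RPKM, so both cordycepin+EGF samples were above both EGF samples. That difference was 0.45 on the log2 scale (adjusted p = 0.248), which did not pass. By RT-qPCR the paper reports a lower FOS induction with cordycepin in both WT and knockout cells, which these AMPK KO libraries do not show. The measures and samples differ: RT-qPCR was relative to GAPDH, and these are RPKM of 2 libraries a group with replicate 1 set aside. WT cells with EGF alone are not compared here.

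EGR3 (ENSG00000179388, chromosome 8, 22687659 to 22693480, minus strand) encodes a factor of the EGR family and had 0.491 and 0.639 RPKM in DMSO, 4.38 and 4.82 RPKM with EGF, and 5.35 and 4.74 RPKM with cordycepin and EGF. Its log2 fold change against DMSO was 2.43 (SE 0.172, adjusted p = 0.00151), and the cordycepin+EGF samples overlapped the EGF samples. EGR2, of the same family (ENSG00000122877, chromosome 10, 62811996 to 62819167, minus strand), was low throughout, with 0.0701 and 0.147 RPKM in DMSO (4 and 9 reads) and 1.29 and 1.64 RPKM with cordycepin and EGF (70 and 115 reads). EGR2 thus rose (log2 fold change 1.72, SE 0.187, adjusted p = 0.0147), and EGF alone gave 0.741 and 1.09 RPKM. FOSB, a partner of JUN proteins in AP-1 (ENSG00000125740, chromosome 19, 45467995 to 45475179, plus strand), rose from 0.702 and 0.863 RPKM to 2.71 and 3.57 RPKM (log2 fold change 1.54, SE 0.203, adjusted p = 0.0253), beside 2.71 and 2.53 RPKM with EGF alone. Of these 5 genes, EGR1 had a cordycepin+EGF mean below the mean with EGF alone, and the other 4 had one above it, from 110.0% (EGR3) to 160.0% (EGR2) of the EGF mean. The comparisons with DMSO and with EGF alone share libraries and are set side by side only.

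**Figure D1:**
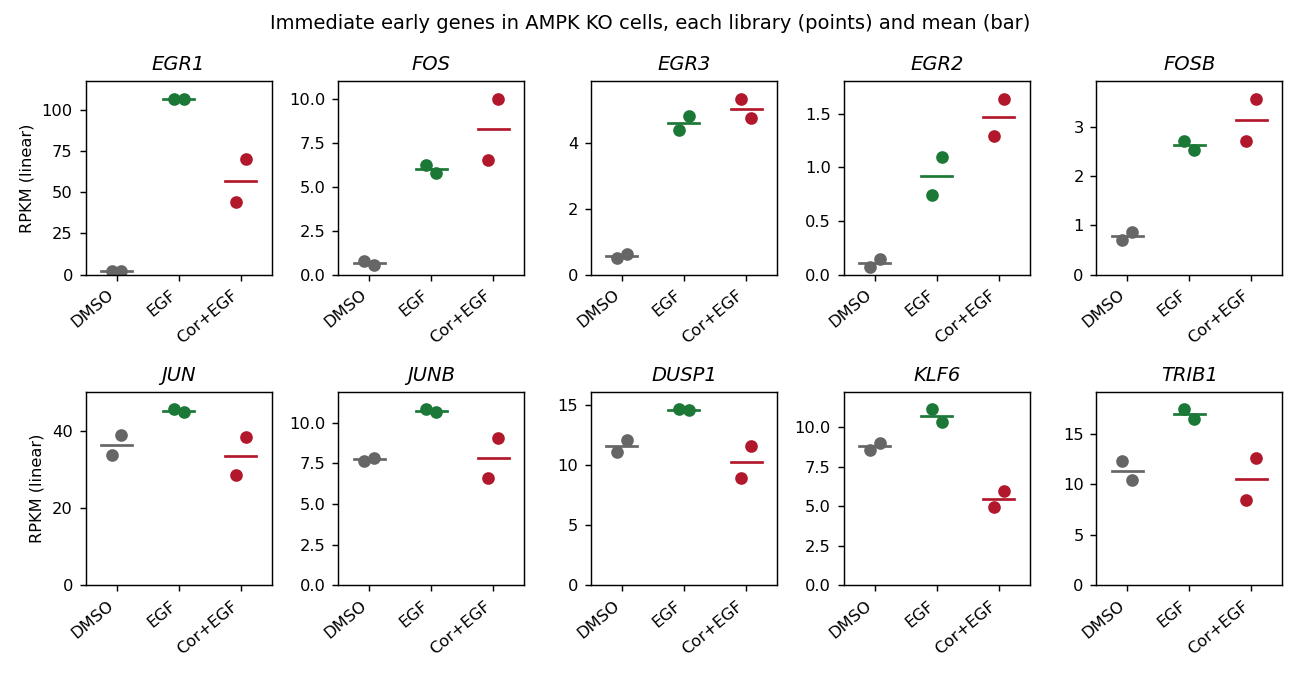
RPKM (linear axis from 0) of 10 early genes in the 2 libraries (points) and their mean (bar) of AMPK KO cells given DMSO, EGF, or cordycepin and EGF (Cor+EGF). EGR1, FOS, EGR3, EGR2 and FOSB stay above DMSO with cordycepin, while JUN, JUNB, DUSP1 and TRIB1 overlap DMSO and both KLF6 samples lie below it.

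Of the 27 listed immediate early transcription factor genes 25 were tested (EGR4 and KLF2 fell below the filter), and 5 of 25 passed as higher, beside 73 of 22067 tested genes (0.331%). By limma 0 passed as lower. Voom on recovered reads, and limma without WT DMSO replicate 3, each called 6 higher and 1 lower, with NR4A1 added as higher and KLF6 as lower. At an unadjusted p under 0.05 the counts were 9 higher and 1 lower of 25, beside 12.2% and 10.0% of all tested genes. Voom called 3.36% of all genes in its fit as higher and 4.04% as lower. The 2 groups did not overlap for 12 genes that were higher and 6 that were lower, beside 30.8% and 25.3% of all tested genes. The median log2 fold change of the 25 genes was 0.10, and that of all tested genes was 0.05. With EGF alone against DMSO, 3 genes passed as higher (0.0136% of those tested), namely EGR1 (log2 fold change 5.28), FOS (2.497) and EGR3 (2.26).

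Several early genes had values at or under the DMSO level. JUN, which encodes the main AP-1 partner of FOS, had 33.7 and 39.1 RPKM in DMSO, 45.7 and 44.9 RPKM with EGF, and 28.7 and 38.4 RPKM with cordycepin and EGF. Its log2 difference from DMSO was -0.07 (95% interval -0.39 to 0.24, adjusted p = 0.790), and 0.13 after quantile normalisation. JUNB had 7.64 and 7.86 RPKM in DMSO, 10.8 and 10.6 RPKM with EGF, and 6.60 and 9.06 RPKM with cordycepin and EGF, a difference of 0.05 (95% interval -0.41 to 0.51). For both genes the cordycepin+EGF samples overlapped the DMSO samples and lay below both EGF samples.

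MYC, a growth regulator, gave 6.89 and 6.99 RPKM in DMSO, 11.2 and 9.83 RPKM with EGF, and 5.27 and 11.4 RPKM with cordycepin and EGF. Its 2 cordycepin+EGF samples fell on either side of the DMSO samples (log2 difference 0.21, 95% interval -0.43 to 0.86). KLF6, a Krüppel-like factor, had 8.57 and 9.04 RPKM in DMSO, 11.1 and 10.3 RPKM with EGF and 4.95 and 5.98 RPKM with both, so that both cordycepin+EGF samples were below all others. The difference from DMSO was -0.59 (adjusted p = 0.0803), which did not pass, and that from EGF alone was -0.87 (adjusted p = 0.0325), which did. NR4A1, an orphan nuclear receptor, had 1.66 and 1.82 RPKM in DMSO and 3.50 and 3.16 RPKM with cordycepin and EGF (0.82 on the log2 scale, adjusted p = 0.0734), and missed the threshold.

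Among feedback inhibitors of growth factor signalling, 0 of 21 tested genes passed by limma, 5 were higher and 0 lower at an unadjusted p under 0.05, and 1 passed as higher with voom on recovered reads. The shares over all genes were 12.2% higher and 10.0% lower at that p, and 3.36% and 4.04% by voom. DUSP1, a phosphatase of MAP kinases, had 11.1 and 12.1 RPKM in DMSO, 14.7 and 14.6 RPKM with EGF, and 8.92 and 11.6 RPKM with cordycepin and EGF (log2 difference from DMSO -0.12, 95% interval -0.42 to 0.17). SPRY2, a Sprouty protein that dampens receptor signalling, had 7.56 and 7.67 RPKM in DMSO and 9.74 and 9.71 RPKM with EGF, but 4.40 and 7.33 RPKM with cordycepin and EGF (difference from DMSO -0.34, 95% interval -0.82 to 0.15). The related SPRY4 went the other way in its values, with 2.64 and 2.37 RPKM in DMSO, 3.19 and 3.23 RPKM with EGF, and 4.52 and 4.45 RPKM with both (0.78 against DMSO, adjusted p = 0.0662). TRIB1, a pseudokinase, had 12.3 and 10.4 RPKM in DMSO, 17.4 and 16.4 RPKM with EGF, and 8.46 and 12.6 RPKM with both, which overlapped DMSO.

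For the other growth factor inducible genes 0 of 25 passed by limma, 4 were higher and 3 lower at an unadjusted p under 0.05, and voom called 1 in each direction. All genes together gave 12.2% higher and 10.0% lower at that p, and 3.36% and 4.04% by voom. F3, the tissue factor that starts coagulation, had 0.653 and 0.547 RPKM in DMSO and 1.23 and 1.79 RPKM with cordycepin and EGF (log2 difference 0.90, adjusted p = 0.119). At the other end GADD45A, a growth arrest gene, had 19.0 and 26.9 RPKM in DMSO and 12.5 and 12.7 RPKM with cordycepin and EGF (-0.77, adjusted p = 0.132). The medians of the feedback and other inducible lists were 0.09 and 0.10, close to the 0.05 of all tested genes.

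Genes of the pathway that carries the signal showed small values. Among 29 genes from the EGF receptor to ERK, 0 passed by limma, 3 were higher and 5 lower at an unadjusted p under 0.05, voom called 1 in each direction, and the median was -0.14. EGFR itself had 0.771 and 0.678 RPKM in DMSO and 1.38 and 2.29 RPKM with cordycepin and EGF (0.95, adjusted p = 0.205). Of 21 PI3K and mTOR pathway genes 0 passed, 1 was higher and 6 lower at an unadjusted p under 0.05, voom called 0 higher and 3 lower, and the median was -0.11. For both lists the shares over all genes were 12.2% higher and 10.0% lower at that p, and 3.36% and 4.04% by voom. The knocked out PRKAA1 had 7.62 and 7.37 RPKM in DMSO and 7.03 and 8.50 RPKM with cordycepin and EGF, and PRKAA2 had 5.59 and 6.08 RPKM and 5.39 and 7.43 RPKM. Transcripts of both targets were thus still counted in these cells, and the tables do not show whether they carry the edit.

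**Figure D2:**
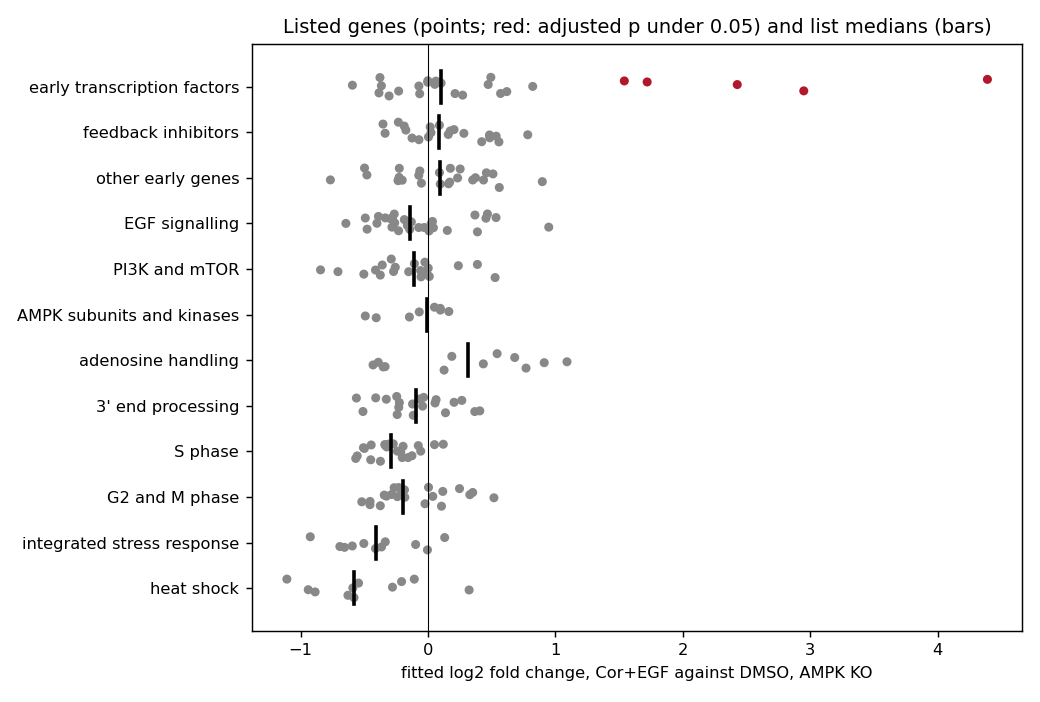
Fitted log2 fold change of AMPK KO cordycepin+EGF against DMSO for each tested member (points) of 12 gene lists, with the list median as a bar. Red points have an adjusted p under 0.05, which 5 immediate early transcription factor genes reached, and the heat shock and integrated stress response medians are the lowest, at -0.58 and -0.41.

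Over all 22067 tested genes, 73 were higher (0.331%) and 6 lower (0.0272%) at an adjusted p under 0.05. By the threshold of the study (an unadjusted p up to 0.05 with a log2 change of 1 or more in either direction) 688 were higher (3.12%) and 138 lower (0.625%). These counts depend on how the spread is estimated. Voom on recovered reads called 736 higher (3.36%) and 885 lower (4.04%) of 21890 genes, a fit of only the AMPK KO libraries 93 and 61, and a fit of only these 4 libraries 3 and 0. Without WT DMSO replicate 3, the shallowest library, which enters through the shared spread, the counts were 810 (3.67%) and 483 (2.19%), and leaving out AMPK KO cordycepin+EGF replicate 2 or either AMPK KO DMSO replicate left 3 and 0. Leaving out WT DMSO replicate 2, a deeper library with 16523244 reads on listed genes, moved the counts about as far as leaving out WT DMSO replicate 3 did. EGR1 passed in each of the 20 alternative fits, and EGR3 and FOS in 18 of 20 each, failing in the 2 fits restricted to these 4 libraries. EGR2 passed in 12 of 19 (adjusted p up to 0.133) and FOSB in 11 of 20 (adjusted p up to 0.190), and both missed the threshold without either cordycepin+EGF replicate (adjusted p = 0.0857 and 0.174 without replicate 2, and 0.0598 and 0.0880 without replicate 3). Of the rises described next, DNAJC19P5 passed in 16 of 20 fits, RNF225 in 15, HCG14 in 14, ENSG00000278703 in 11 and ABR-AS1 in 7, and ENSG00000261026 and ENSG00000279273 in 14 of 19 each. Of the falls, the U2 copy ENSG00000277903 passed in 14 of 20 fits, NOCT in 11, POLE3 in 10, H2AC8 and LINC01783 in 8 each and CKS1BP7 in 7.

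The 68 genes called higher other than the EGR and FOS genes were mostly low in DMSO, with a median of 0.737 RPKM beside 3.447 RPKM for all tested genes. Their median log2 fold change with EGF alone was 0.13, beside 0.01. Of them 32 were protein coding, 24 long non-coding RNAs and 7 pseudogenes. Among all 22044 tested genes with a position these classes held 12822, 4573 and 3506. A total of 16 of 68 (23.5%) began within 10 kb downstream of an expressed coding gene on the same strand, beside 13.1% of all tested genes. RNF225, a ring finger protein gene (ENSG00000269855, chromosome 19, 58395656 to 58397079, plus strand), had 1.78 and 2.51 RPKM in DMSO, 1.98 and 1.93 RPKM with EGF, and 15.8 and 9.57 RPKM with cordycepin and EGF (log2 fold change 2.34, SE 0.239, adjusted p = 0.0107). Both cordycepin+EGF samples of RNF225 lay above all DMSO and EGF samples.

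ENSG00000279273, a gene model still awaiting experimental evidence, 1241 bases downstream of the neuronal pentraxin gene NPTX1 (chromosome 17, 80463451 to 80465593, minus strand), had 0.394 and 0.283 RPKM in DMSO, 0.304 and 0.439 RPKM with EGF, and 4.01 and 2.69 RPKM with cordycepin and EGF (2.22, SE 0.224, adjusted p = 0.0107). NPTX1 had 27.3 and 28.7 RPKM in DMSO and 32.6 and 33.3 RPKM with cordycepin and EGF (0.29, adjusted p = 0.152). ENSG00000261026, a long non-coding RNA gene, starts 3650 bases after EGR3 on the same strand (chromosome 8, 22679013 to 22684009). It had 2 and 1 reads in the DMSO libraries and 212 and 170 with cordycepin and EGF, a ratio of 121 (95% counting interval 41.0 to 589) after library size. With EGF alone it had 0.318 and 0.464 RPKM, against 2.90 and 1.80 RPKM with both (adjusted p = 0.0361 for that difference), while EGR3 differed by 0.16 between these groups (adjusted p = 0.610). Of the 10 largest rises by the rule it is the one that follows an EGR or FOS gene on the same strand.

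DNAJC19P5, a processed pseudogene inside the oxidative stress factor gene NFE2L2 on the same strand (ENSG00000225808, chromosome 2, 177229191 to 177229506), had the largest fitted value after EGR1 at a pseudocount of 0.5. With voom ENSG00000261026 was above both (log2 fold change 6.54, against 4.61 for EGR1 and 4.06 for DNAJC19P5). DNAJC19P5 had 0.823 and 0.960 RPKM in DMSO (4 and 5 reads), 3.43 and 1.60 RPKM with EGF, and 18.4 and 14.9 RPKM with cordycepin and EGF (85 and 89 reads). The pseudogene rose (log2 fold change 3.67, SE 0.456, adjusted p = 0.0231), while NFE2L2 had 3.13 and 2.95 RPKM in DMSO and 4.11 and 4.52 RPKM with both. Reads of a pseudogene can be shared with its parent gene or its host, so this value is uncertain.

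The other large rises by the rule were HCG14, ABR-AS1 and ENSG00000278703, all long non-coding. HCG14 had 4 and 8 reads in DMSO and 46 and 39 with cordycepin and EGF (log2 fold change 2.33, adjusted p = 0.0231). ABR-AS1, antisense to ABR, had 2 and 1 reads in DMSO and 11 and 23 with both, a ratio of 10.8 (95% counting interval 3.38 to 54.7, adjusted p = 0.0449 by limma). ENSG00000278703 had 3 and 2 reads in DMSO and 20 and 38 with both (log2 fold change 2.30, adjusted p = 0.0449). Intervals from reads cover counting error only.

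Coding genes further down the order and outside the naming rule, picked after their values were seen, were higher at better depth. RAB26, a small GTPase of vesicle traffic, had 3.97 and 4.59 RPKM in DMSO, 3.60 and 3.84 RPKM with EGF and 18.69 and 14.01 RPKM with cordycepin and EGF (1.86, SE 0.166, adjusted p = 0.00785). SNX32, a sorting nexin, had 0.327 and 0.740 RPKM in DMSO and 4.23 and 3.22 RPKM with both (2.10, adjusted p = 0.0186). For both genes the EGF samples lay near the DMSO samples.

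A total of 6 genes passed as lower. NOCT, which encodes nocturnin, had 16.04 and 17.9 RPKM in DMSO, 15.8 and 15.7 RPKM with EGF, and 8.97 and 9.95 RPKM with cordycepin and EGF (-0.75, SE 0.102, adjusted p = 0.0271). POLE3, a histone fold subunit of DNA polymerase epsilon, had 62.0 and 69.0 RPKM in DMSO, 60.9 and 59.8 RPKM with EGF, and 37.0 and 38.6 RPKM with both (-0.73, SE 0.104, adjusted p = 0.0345). H2AC8, a replication-dependent histone gene, had 51.4 and 46.1 RPKM in DMSO and 18.4 and 23.2 RPKM with both (-1.16, adjusted p = 0.0449). In each of these genes both cordycepin+EGF samples were below the DMSO and the EGF samples. The other 3 were the pseudogene CKS1BP7 (-1.30, from 27 and 36 reads to 9 and 15), the U2 small nuclear RNA copy ENSG00000277903 (-1.28, from 57 and 74 reads to 24 and 28) and LINC01783 (-1.27, from 38 and 53 reads to 8 and 16). H2AC8, CKS1BP7 and the U2 copy have near-identical relatives, so reads could be split between copies.

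To fill 10 falls the rule added 4 genes by the threshold of the study. MT-TD, a mitochondrial transfer RNA for aspartate, had 28 and 19 reads in DMSO and 0 and 2 with cordycepin and EGF, which is 24.8 times fewer after library size (95% counting interval 6.48 to 210.0). MT-TG, that for glycine, had 18 and 16 reads and then 0 and 6, and the U2 copy RNU2-63P had 11 and 20 reads and then 0 and 4. ENSG00000287001, a long non-coding RNA gene on chromosome 19, had 16.9 and 27.5 RPKM in DMSO, 20.5 and 20.1 RPKM with EGF, and 2.95 and 2.49 RPKM with both (-2.73, adjusted p = 0.0843). Their adjusted p was 0.0591 to 0.121, so none of these 4 passed.

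The size of the change moved with the level of a gene. The median log2 fold change was 0.20 for genes with a mean under 1 RPKM over the 4 libraries, 0.24 from 1 to 2 RPKM, -0.14 from 10 to 20 RPKM and -0.30 at 50 RPKM and over. In the lowest and highest of these bins the single libraries differed from the DMSO mean by 0.25 and -0.46 (replicate 2) and by 0.14 and -0.15 (replicate 3), so replicate 2, with 12674441 reads on listed genes, was shifted more than replicate 3, with 17928209. The EGF libraries stayed within -0.02 to 0.05 in every bin. EGR1, with a median of -0.23 in its bin, and FOS, with 0.14, stood far from the genes of their level. Whether this shift has a part in the rise of low genes and the fall of high ones was not tested. After quantile normalisation, which gives every library the same distribution of values, 27 genes were higher and 4 lower. EGR1, FOS and EGR3 passed, and EGR2 and FOSB did not (adjusted p = 0.0689 and 0.0811). Of the genes called lower in the main fit, NOCT and the U2 copy ENSG00000277903 still passed. POLE3, H2AC8, CKS1BP7 and LINC01783 did not (adjusted p = 0.0731, 0.0689, 0.0585 and 0.0632).

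**Figure D3:**
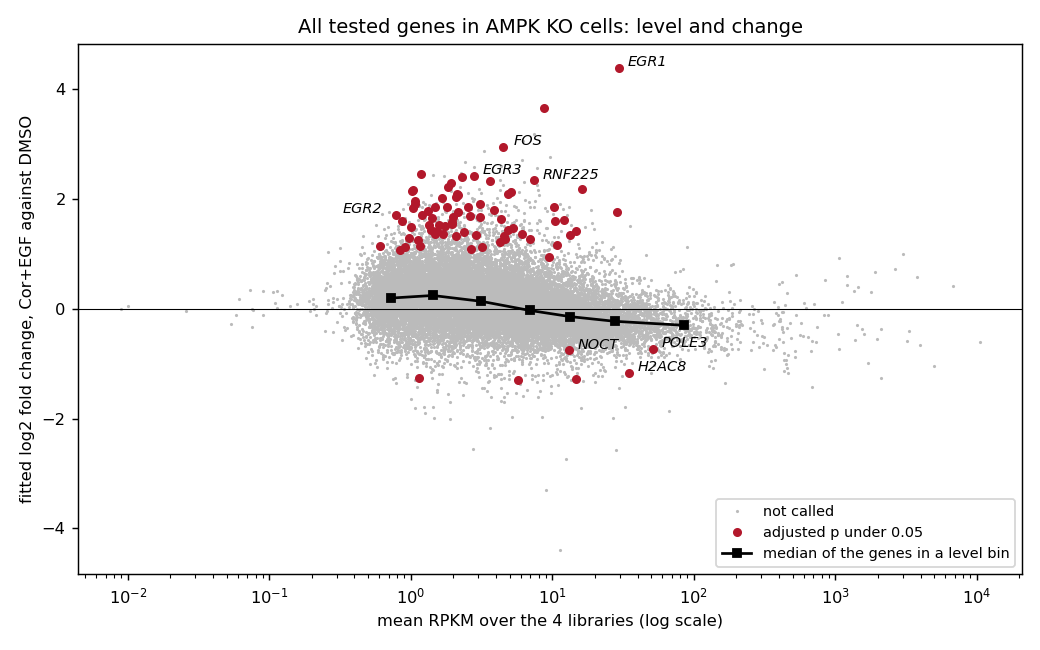
Fitted log2 fold change of AMPK KO cordycepin+EGF against DMSO (vertical) against mean RPKM over the 4 libraries (horizontal, log scale) for 22067 tested genes, with the 79 called genes in red. The black line joins the medians of genes binned by level and falls from 0.24 to -0.30.

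**Figure D4:**
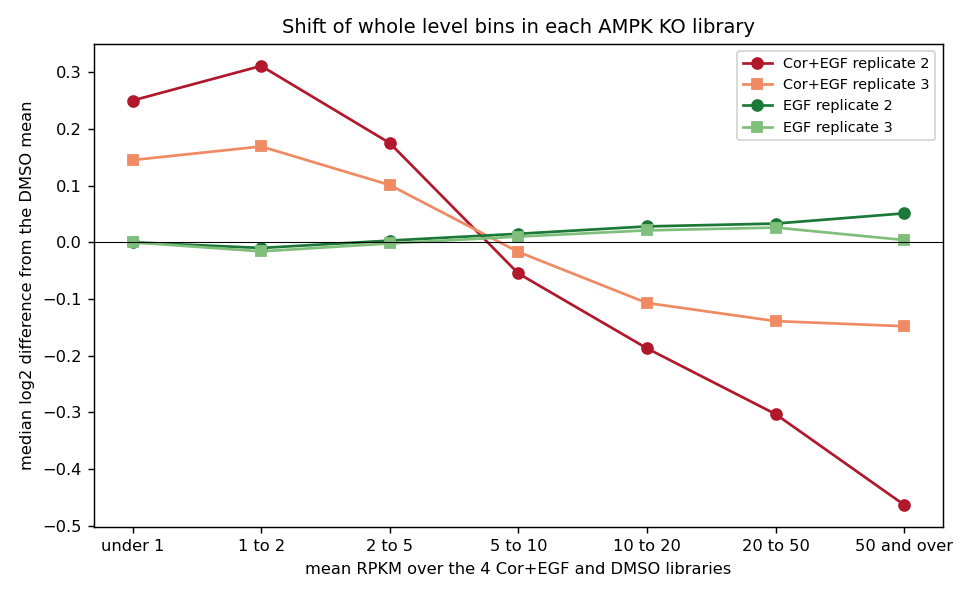
Median log2 difference from the AMPK KO DMSO mean in bins of genes by level, for each AMPK KO library with EGF or with cordycepin and EGF (Cor+EGF). The Cor+EGF lines fall with level, most in replicate 2 (0.25 to -0.46 from the lowest to the highest bin), and the EGF lines stay near 0.

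Gene lists of stress and proliferation had medians below 0, with 1 member (H2AC8) past the adjusted threshold in the fit of all libraries. Among 11 heat shock chaperone genes the median was -0.58 (range over members -1.11 to 0.32), 0 passed by limma, 0 were higher and 5 lower at an unadjusted p under 0.05, and voom called 5 lower. Over all genes 12.2% were higher and 10.0% lower at that p, and voom called 3.36% higher and 4.04% lower. DNAJB1, a co-chaperone of HSP70, had 27.5 and 33.0 RPKM in DMSO, 24.9 and 26.6 RPKM with EGF, and 13.5 and 12.9 RPKM with cordycepin and EGF (-1.11, adjusted p = 0.119). HSPA1A, an inducible HSP70, had 621 and 746 RPKM in DMSO and 415 and 301 RPKM with both (-0.89, adjusted p = 0.184), and it shares reads with its near-identical copy HSPA1B. Of 11 integrated stress response genes 0 passed, 0 were higher and 5 lower at an unadjusted p under 0.05, voom called 1 lower, and the median was -0.41. CHAC1, a target of ATF4, had 4.28 and 3.70 RPKM in DMSO and 1.93 and 1.65 RPKM with both (-0.92, adjusted p = 0.151).

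Of 22 DNA replication genes 0 passed, 0 were higher and 9 lower at an unadjusted p under 0.05 (voom called 3 lower), with a median of -0.29. For this list and the next 2, the shares over all genes were 12.2% higher and 10.0% lower at that p. By voom they were 3.36% and 4.04%. PCNA, the sliding clamp, had 232 and 251 RPKM in DMSO and 134 and 184 RPKM with cordycepin and EGF (-0.55, adjusted p = 0.167). Of 22 mitosis genes 0 passed, 1 was higher and 4 lower at an unadjusted p under 0.05, voom called 1 lower, and the median was -0.19. Of 55 replication-dependent histone genes 1 passed as lower by limma, H2AC8, and 15 did by voom. At an unadjusted p under 0.05, 1 was higher and 19 were lower, and the median was -0.43. Without cordycepin+EGF replicate 2 or 3 the histone median was -0.21 or -0.64, and 0 passed. Quantile normalisation moved the medians to -0.37 (heat shock), -0.29 (stress response), -0.11 (replication), 0.00 (mitosis) and -0.23 (histones), so the value of the mitosis list rests on the scaling. Long non-coding RNA genes had a median of 0.23 over 4573 tested, which became 0.03.

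Genes that handle adenosine were examined because cordycepin enters cells and is phosphorylated by the same route. Of 12 tested genes 0 passed by limma, 5 were higher and 3 lower at an unadjusted p under 0.05, and voom called 5 higher. Beside the lists in this paragraph, 12.2% of all genes were higher and 10.0% lower at that p. Voom called 3.36% of all genes higher and 4.04% lower. The nucleoside transporter SLC29A1 had 20.6 and 13.8 RPKM in DMSO, 19.6 and 19.5 RPKM with EGF, and 33.2 and 37.1 RPKM with cordycepin and EGF (1.09, adjusted p = 0.114). SLC29A2, a second transporter, had 8.36 and 7.88 RPKM in DMSO and 12.3 and 15.2 RPKM with both (0.77, adjusted p = 0.0707). ADK, the kinase that phosphorylates adenosine, had 13.02 and 13.9 RPKM in DMSO and 9.50 and 10.6 RPKM with both (-0.35, adjusted p = 0.203). Among 20 cleavage and polyadenylation genes 0 passed, 2 were higher and 3 lower at an unadjusted p under 0.05, voom called 0 higher and 1 lower, and the median was -0.09. Among 8 genes of AMPK subunits and upstream kinases 0 passed, 0 were higher and 2 lower at an unadjusted p under 0.05, and voom called none.

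The same contrast in WT cells gave 14 genes as higher (0.0634%) and 1 as lower (0.00453%). Of the 73 genes called higher in AMPK KO cells 69 had a positive value in WT cells and 10 passed there, among them EGR1, FOS, EGR3, RNF225 and RAB26, while 11716 of all 22044 tested genes with a position had a positive value in WT. Of the 688 genes higher by the threshold of the study 393 were positive in WT, and of the 138 lower 41 were negative. The difference between the genotypes had an unadjusted p under 0.05 for 38 of the 79 called genes, beside 22.2% of all tested genes. The 79 genes were chosen by their AMPK KO change, which is part of that difference, so an excess among them is partly built in. EGR1 had 2.64 and 2.38 RPKM in WT DMSO and 53.8 and 50.9 RPKM in WT cordycepin+EGF (log2 fold change 4.15, SE 0.186). The AMPK KO minus WT difference for EGR1 was 0.24 (95% interval -0.36 to 0.83, adjusted p = 0.607). For FOS it was 0.42 (95% interval -0.25 to 1.09, adjusted p = 0.412), with 0.903 and 0.624 RPKM in WT DMSO and 6.99 and 6.38 RPKM in WT cordycepin+EGF. The differences of EGR3 (0.42), EGR2 (0.32) and FOSB (0.40) were also positive with intervals that include 0. No difference between the genotypes was detectable in these 5 genes, and each interval leaves room for differences of at least 0.83 on the log2 scale. Over the 25 tested immediate early transcription factor genes the median log2 fold change was 0.55 in WT and 0.10 in AMPK KO cells, and 8 of 25 had an unadjusted p under 0.05 for the difference, beside 22.2% of all tested genes.

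The early genes that did not pass in AMPK KO cells had varied WT values. JUNB had 3.72 and 5.02 RPKM in WT DMSO and 8.36 and 7.46 RPKM in WT cordycepin+EGF, and its AMPK KO minus WT difference was -0.76 (95% interval -1.41 to -0.11, adjusted p = 0.177). DUSP1 had 9.63 and 9.63 RPKM in WT DMSO and 14.5 and 17.1 RPKM in WT cordycepin+EGF, a difference of -0.82 (adjusted p = 0.121). Both WT treated samples of these 2 genes lay above both WT DMSO samples, which was not so in AMPK KO cells. MYC had 28.1 and 20.5 RPKM in WT DMSO and 11.3 and 11.1 RPKM in WT cordycepin+EGF, so its difference was 1.26 (95% interval 0.35 to 2.17, adjusted p = 0.142). JUN had 36.1 and 40.6 RPKM in WT DMSO and 42.7 and 43.7 RPKM in WT cordycepin+EGF (difference -0.26, adjusted p = 0.448). KLF6 had 8.36 and 9.06 RPKM and 7.96 and 7.48 RPKM (difference -0.44, adjusted p = 0.180). None of these 5 differences passed in the limma fit of all libraries.

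**Figure D5:**
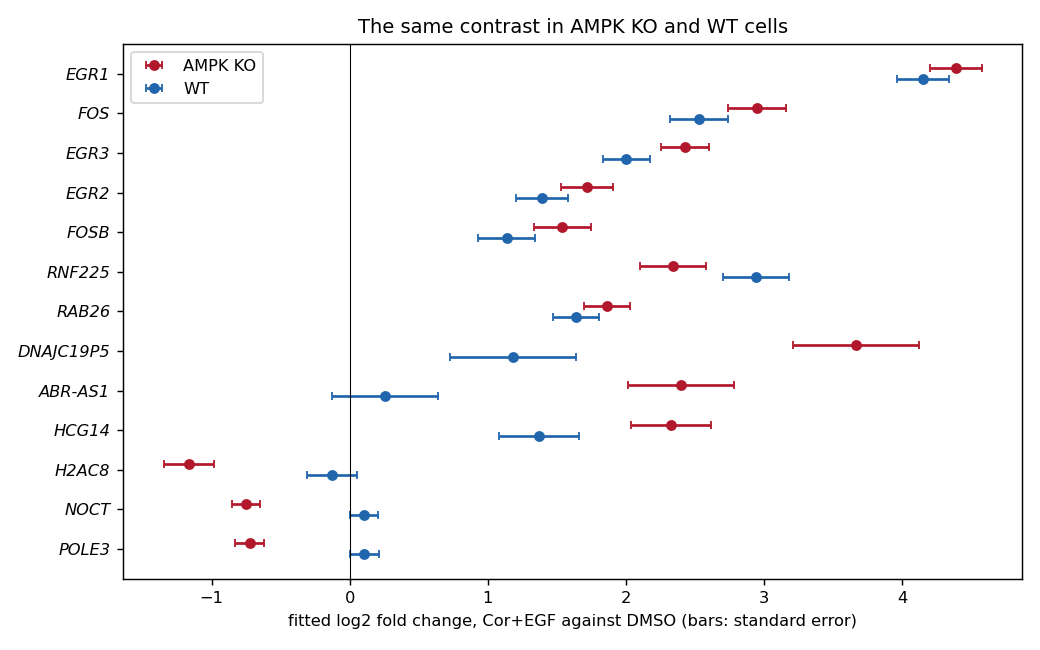
Fitted log2 fold change of cordycepin+EGF against DMSO with its standard error in AMPK KO (red) and WT (blue) cells for 13 genes, 2 libraries a group. The EGR and FOS genes lie to the right of 0 in both genotypes, and NOCT, POLE3 and H2AC8 are lower in AMPK KO cells with WT values between -0.13 and 0.11.

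Across the table, limma found 0 of 22067 genes (0.00%) with a difference between AMPK KO and WT at an adjusted p under 0.05, while 4905 (22.2%) had an unadjusted p under 0.05 and voom called 2530. The count rested on WT DMSO replicate 3, with 4007864 reads on listed genes against 12674441 to 26440486 in the others: without it, 1645 genes had a higher (7.45%) and 1923 a lower (8.71%) change in AMPK KO cells, with a single WT DMSO library left. That fit measures every WT change from WT DMSO replicate 2 alone, and leaving out replicate 2 instead gave far fewer calls. With all libraries no heat shock, stress response, immediate early transcription factor, histone, mitosis or adenosine gene passed for the difference. Median log2 fold changes in AMPK KO and WT were -0.58 and 0.05 (heat shock), -0.41 and 0.43 (stress response) and -0.43 and 0.14 (histones). They were -0.19 and -0.25 for the mitosis list and 0.31 and -0.10 for the adenosine list. DNAJB1 had 11.3 and 25.5 RPKM in the WT DMSO replicates and 20.9 and 28.3 RPKM in WT cordycepin+EGF. Its difference between genotypes was -1.63 with all libraries (adjusted p = 0.127) and -2.19 without WT DMSO replicate 3. The 2 WT DMSO values of DNAJB1 lay far apart, and the lower came from replicate 2.

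NOCT had 12.9 and 12.7 RPKM in WT DMSO and 12.8 and 14.4 RPKM in WT cordycepin+EGF. Its difference between genotypes was -0.85 with all libraries (adjusted p = 0.121) and -0.83 without WT DMSO replicate 3. POLE3 had 49.2 and 50.2 RPKM in WT DMSO and 49.9 and 56.2 RPKM in WT cordycepin+EGF. Its difference was -0.83 (adjusted p = 0.121), and -0.84 without that library. The sizes of these 2 differences changed little when the library was left out, while that of DNAJB1 grew. Both genes were named for their AMPK KO change, which is part of this difference, so its size is partly built in. Of the genes with the smallest p, MIR3192 (2.48) and TIMM21 (1.71), which encodes a mitochondrial import protein, had a higher change in AMPK KO cells, and SNORA11F (-2.01) and PSENEN (-1.09), a subunit of gamma secretase, had a lower one, all at an adjusted p = 0.121. The others named by the rule were ENSG00000288924 (1.35), PIGUP1 (3.47) and RBMS2P1 (1.82) as higher, and the U2 copy ENSG00000277903 (-1.61), DLX2-DT (-1.72) and RNU6-2 (-2.35) as lower.

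The line was checked against its markers. All 6 markers of HEK293 cells were listed, with summed levels of 33.9 and 39.3 RPKM in DMSO and 27.7 and 45.5 RPKM with cordycepin and EGF, of which NEFL made up most, while NEFM was at 0 in replicate 2 with cordycepin and EGF. Of 13 markers of other cell types 4 were analysed here, and their sum was 2.75 and 3.71 RPKM in DMSO and 2.41 and 2.32 RPKM with both. Log2 values of the replicates correlated across genes with r = 0.972 in AMPK KO DMSO and 0.961 in AMPK KO cordycepin+EGF. In the treated group 59 and 39 genes had no read, against 107 and 100 in DMSO.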

How the data were processed

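RNA of 12 HEK293 samples was sequenced in paired reads of 150 bases (stranded, ribosomal RNA depleted). The authors mapped reads to GRCh38.p13, counted them with Rsubread, set replicate 1 of every condition aside as an outlier, and deposited RPKM values for 26058 Ensembl genes. A further 2 rows, which named no gene, were left out. Symbols and positions came from GENCODE 44 (26029 matched). Reads were recovered from the RPKM steps: 96.25% of genes were whole within 0.05 reads in all libraries at the annotated length and 99.14% after a length search. Depth was 4007864 to 26440486 reads on listed genes.

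Values were divided by each library's upper quartile and taken as log2(scaled RPKM + 0.5), so fold changes of low genes are understated. Genes whose RPKM averaged 0.5 or more over the 12 libraries were tested with limma 3.58.1 (R 4.3.3; lmFit, contrasts, eBayes with trend; 12 libraries in 1 fit, 8.96 degrees of freedom, two-sided, Benjamini-Hochberg over all tested genes). RPKM are printed as deposited. SE is the moderated standard error. The test was checked on simulated data with the same dispersion (spread beyond counting error) for every gene and no shift with level. That check does not show how the test behaves with the uneven spread of these libraries.

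Named genes were EGR1, FOS, PRKAA1, PRKAA2, list members, and the 10 largest rises and falls whose groups did not overlap, with an average of 1 RPKM or more and an adjusted p under 0.05, filled up by the study's threshold, and 5 per direction for the AMPK KO and WT difference. The comparison, members and lists were chosen with earlier results of these data known. Alternatives used other pseudocounts (0.1 and 1), all genes or those from 1 RPKM, RPKM as deposited, median ratio scaling, smaller fits, a replicate block, eBayes without trend, voom on recovered reads and leaving out replicates. Quantile normalisation and the left out WT libraries, for the AMPK KO contrast, were added after seeing the data.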

Additional observations from a re-analysis of the deposited data

How the results depend on the processing

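Against 73 genes higher and 6 lower, a pseudocount of 0.1 gave 36 and 3, no filter 124 and 13, a filter at 1 RPKM 30 and 3, eBayes without trend 115 and 5, voom on recovered reads 736 and 885, quantile normalisation 27 and 4, the fit of only the groups compared 3 and 0, and that of only the AMPK KO libraries 93 and 61. Leaving out 1 replicate gave 3 to 810 genes higher and 0 to 483 lower: 3 and 0 when AMPK KO cordycepin+EGF replicate 2 or either AMPK KO DMSO replicate was dropped, 17 and 0 when AMPK KO cordycepin+EGF replicate 3 was, 28 and 1 without either WT cordycepin+EGF replicate, 789 and 480 without WT DMSO replicate 2, and 810 and 483 without WT DMSO replicate 3. The cause was not tested, and a lone sample is assumed to vary like the other groups. All 79 genes kept their sign wherever they were tested, but this was nearly fixed in advance. Fits that change only the spread leave the fold change as it was. Of the 79, 73 averaged 1 RPKM or more and had groups that did not overlap, so dropping a single library could hardly turn their sign. EGR1 kept its call in all 20 fits, with a log2 fold change of 4.07 to 4.71. FOS stayed at 2.95 but lost its call in the fit of only the groups compared (adjusted p = 0.0904) and with the replicate block (adjusted p = 0.0677), which leave 2 residual degrees of freedom or fewer; its fold change ran from 2.51 to 3.65. The fit with the replicate block called 2 genes higher and 0 lower. Same-numbered samples of the 2 AMPK KO groups deviated with r = 0.031, so the numbers were not taken as pairs.

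The difference between AMPK KO and WT had 0 calls, also with the replicate block, and 2530 with voom. Leaving out 1 replicate gave 0 to 3568, with 3568 without WT DMSO replicate 3, 13 without WT DMSO replicate 2 and 1 when AMPK KO cordycepin+EGF replicate 3 was dropped. PRKAA1 ran from -0.024 to 0.219 and PRKAA2 from -0.044 to 0.372 when 1 replicate was left out, both negative without AMPK KO cordycepin+EGF replicate 3 and neither past the threshold. Over the named genes other than EGR1 and FOS, with PRKAA1 and PRKAA2 included, 126 values lost a call, 10 gained one and 299 stayed on the same side. Depth limits genes with few reads in DMSO, such as ENSG00000261026, ABR-AS1 and the transfer RNAs, whose size is known only within the counting intervals given.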
